A study of Mus musculus with 2 samples.

Results

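The monocytes of sorted mouse brain were the cells of the sorted sample in which single-cell RNA sequencing found transcripts of at least 3 of 7 monocyte genes (Ly6c2, Ccr2, Plac8, Chil3, Vcan, F10 and Ms4a4c) and none of 5 genes of other blood cells (Cd79a of B cells, Cd3e of T cells, Ncr1 of NK cells, Retnlg of neutrophils and Pf4 of border macrophages and platelets). They numbered 119 of the 10076 cells kept in the sorted sample, which was 1.18% (95% exact Clopper-Pearson interval 0.979 to 1.41%), and 19443 cells were kept in the whole series. The choice used these 12 genes in these same cells, so their levels describe the choice and are not results. The label held for part of the cells only: 80 of the 119 fell into 3 clusters with monocyte genes. The other 39 fell into 2 clusters led by genes of other kinds of leukocyte, though single cells of these still carried monocyte genes. Some group values are therefore also given for the 80 cells, and values given for the 119 cells alone can differ in the 80.

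Monocytes are short-lived phagocytes that the bone marrow releases into blood. Classical mouse monocytes carry Ly6C and the chemokine receptor CCR2, enter tissues during inflammation and can become macrophages or antigen-presenting cells there. Non-classical monocytes lose both, depend on the nuclear receptor Nr4a1 and patrol the inner wall of blood vessels. The healthy brain itself is populated by microglia, and by border macrophages in the meninges, the spaces around vessels and the choroid plexus, and monocytes taken from it can come from its vessels or borders as well as from the tissue.

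Unique molecular identifiers (UMIs), each standing for 1 captured transcript, were counted in 2 pooled samples of mouse brain, 1 per group. The sorted sample held FACS-sorted cells of male WT and STING-KO mice aged 3 and 12 months, and the total sample unsorted cells of WT and STING-KO mice of both sexes, aged 2 months and 24 months by its title (its age label reads 240). Both ages and both genotypes, with 2 mice grouped per genotype and age, were therefore mixed inside each sample, while no source used here states the gate of the sort, the cells it selected or the kind of STING allele. The 4 barcode suffixes in each matrix are not assigned to an age or genotype by the labels, so they are given only as the spread within the sample, no genotype or age was compared, and no test or p-value was possible.

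The 119 cells held 580901 UMIs, with a median of 4184 per cell (1126 to 23015) and of 1509 detected genes. Suffixes 1 to 4 held 24 of 3160, 13 of 2376, 43 of 2034 and 39 of 2506 kept cells as monocytes, which were 0.760%, 0.547%, 2.11% and 1.56%. The shares in suffixes 3 and 4 lay above those in suffixes 1 and 2, and the intervals of suffix 3 (1.53 to 2.84%) and suffix 1 (0.487 to 1.13%) did not overlap. The same rule found 3 of 9367 cells in total brain, or 0.0320% (0.00661 to 0.0936%), too few to describe. None of the 119 cell barcodes occurred in another suffix or in the total sample, whereas 92 kept sorted cells shared a barcode with another suffix, and a doublet caller marked 0 of the 119 and 85 of all 10076 cells (0.844%).

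**Figure D1:**
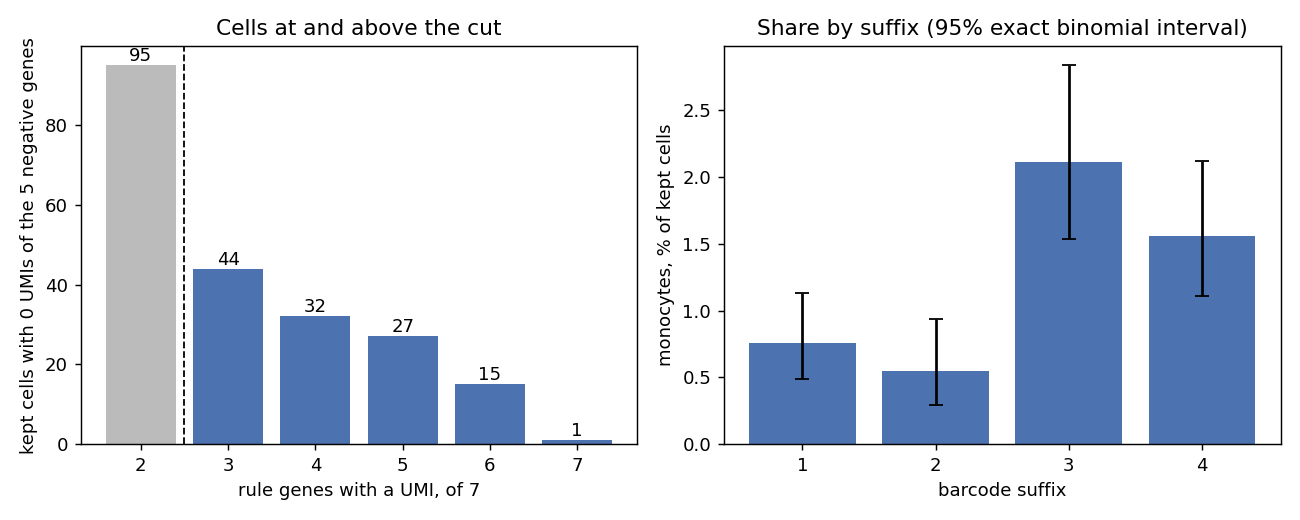
Left, kept cells of sorted brain with 0 UMIs of the 5 negative genes, by the number of the 7 rule genes with a UMI; the dashed line is the cut, and the cells with 0 or 1 are not drawn. Right, monocytes as % of kept cells in each barcode suffix with 95% exact binomial intervals; 44 of the 119 cells sit at the cut with exactly 3 genes, and suffix 3 holds the highest share, 2.11%.

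At the cut, 44 monocytes had exactly 3 rule genes and 75 had 4 or more, while 95 cells just outside it had 2. Levels are given as the UMIs of a gene summed over the cells of a group, per 1000000 UMIs (CPM), with no correction for gene length, so they compare a gene between groups and not different genes. F13a1, the A subunit of coagulation factor XIII and a gene the rule did not use, stood at 625 CPM with 4 or more rule genes, 61.5 CPM with exactly 3 and 3.095 CPM with 2. Cd74, the class II invariant chain, ran the other way, at 3745, 14931 and 24929 CPM. The cells at the cut were thus mixed. A further 77 cells had at least 3 rule genes and were set aside for a negative gene, 32 of them with Cd3e and 31 with Retnlg.

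The 4 marker genes of the label were read in most of the 119 cells and seldom in microglia of the same sample. Ly6c2, the surface protein of classical monocytes, had a UMI in 77.3% of monocytes and 0.685% of microglia; with every cell thinned to 1000 UMIs the shares were 52.1% and 0.290%. Plac8, a small cysteine-rich protein, was read in 98.3% against 1.62% (84.9% and 0.821% thinned), Ms4a4c in 81.5% against 1.37% (36.1% and 0.579%), and Ccr2 in 74.8% against 1.10% (45.4% and 0.627%). By gene ID in GENCODE M21 (GRCm38, the files' mm10), Ly6c2 lies at chr15:75108158-75111970, Plac8 at chr5:100553725-100572245, Ms4a4c at chr19:11404770-11427246 and Ccr2 at chr9:124101950-124113557. The median depth was 4184 UMIs in monocytes and 2063 in microglia. These 4 genes belong to the rule, so their shares in the monocytes follow from the choice of cells and are no support for the label. The microglia are shown beside them only as a description. Of the other rule genes, Chil3, a chitinase-like secreted protein, stood at 1367 CPM, coagulation factor F10 at 72.3 CPM and the matrix proteoglycan Vcan at 25.8 CPM in the monocytes.

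Markers of other cells were also counted. All 6 platelet markers were at 0, as were Pf4 and Lyve1 of border macrophages, Pax5 of B cells, Sall1 of microglia, and Retnlg and Cxcr2 of neutrophils, of which Pf4 and Retnlg were set to 0 by the rule. At least 3 markers of their type were found in 14 cells for microglia, 7 for neutrophils, 9 for dendritic cells, 3 for T cells, 6 for choroid plexus epithelium and 15 for erythroid cells. The 5 erythroid markers summed to 472 CPM in monocytes, against 507 to 965 CPM in border macrophages, neutrophils and microglia, and no monocyte had over 1% haemoglobin UMIs (highest 0.266%). The 8 microglia markers summed to 968 CPM (392 to 3176 CPM across suffixes) and the 8 neutrophil markers to 17690 CPM (117 to 21623 CPM). Ttr, the transthyretin of the choroid plexus, had a UMI in every one of the 119 cells, at a median of 0.493% of the UMIs, and reached 25.4% in 1 cell; 2 cells of cluster 1 exceeded 5%. The part of free RNA or of attached cells in these values was not tested.

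Clustering of the 119 cells on their own gave 5 clusters, of 48, 28, 19, 13 and 11 cells. The clusters were drawn from the RNA of these same cells, on 1000 variable genes that could include rule genes, so the genes of a cluster describe it and are not tested. Clusters 1, 2, 3 and 4 drew cells from all 4 suffixes, and cluster 5 from suffixes 1, 3 and 4. A coarser setting gave 3 clusters and a finer one 6, and leaving out the 12 rule genes gave 4. The 13 cells of cluster 4 and the 11 of cluster 5 stayed together in each of these. Cells that stay together can still share a cluster with others, and with 3 or 4 clusters some of the 5 were merged. Whether clusters 4 and 5 stayed separate from the others was not counted.

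Cluster 1, with 48 cells, held the classical monocyte genes. Fn1, which encodes the matrix protein fibronectin, had a level of 676 CPM there, F13a1 696 CPM, Chil3 2202 CPM, S100a4, a calcium-binding protein of motile cells, 2034 CPM, Ccr2 892 CPM and Ly6c2 1636 CPM. F13a1 and Fn1 were each read in 43 of the 48 cells. Its 8 leading genes by fold were Enpp2, Mt3, Kl, Meg3, Clu, Kcnj13, Calml4 and Ttr, which are genes of choroid plexus or nervous tissue, and 5 of its cells had at least 3 choroid plexus markers. Among genes read in at least 50% of its cells, a filter chosen after seeing the data, Ttr led and Fn1, Ggh, Klra2, Smpdl3a, Chil3, Hacd4 and S100a4 followed.

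Cluster 3, with 19 cells, combined monocyte genes with higher levels of class II genes and Apoe than cluster 1. Ly6c2 stood at 1539 CPM and Ccr2 at 913 CPM, close to their levels in cluster 1. Apoe, the lipid carrier of tissue macrophages, stood at 5217 CPM against 2441 CPM in cluster 1, and Cd74 at 11986 against 1367 CPM. Apoe was not particular to cluster 3, since it stood at 5707 CPM in cluster 4. The class II gene H2-Aa was read in 10 of the 19 cells of cluster 3. Lyz2, the lysozyme of phagocytes, was at 57273 CPM, its highest level of the 5 clusters. Its 8 leading genes by fold were low genes of 4 to 18 UMIs each (Bambi, Gpalpp1, Rcan1, Phf20, Ift172, Smpd2, Usp12 and Spsb3). Among genes read in at least 50% of its cells, Sirpb1b, Tmem176a, Abi3, Gpr141, Ms4a6d, Emilin2, Adgre1 and Fcgr1 led.

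Cluster 4, with 13 cells, was non-classical monocyte-like. Its 8 leading genes by fold were Fabp4, Eno3, Cd300e, Ear2, Bcl2a1a, Ace, Hes1 and Cd36. Of these, Fabp4, Eno3, Cd300e and Ace were among the 10 markers listed for non-classical monocytes. All 13 cells had at least 3 of the 10 markers, as did 11 of 48 cells in cluster 1, 6 of 28 in cluster 2, 9 of 19 in cluster 3 and 3 of 11 in cluster 5. Ace, the angiotensin-converting enzyme, stood at 629 CPM against 43.2 CPM in cluster 1, and Treml4, a receptor of patrolling monocytes, at 382 against 19.2 CPM. Nr4a1, the nuclear receptor on which these cells depend, was at 1146 CPM and Gngt2, a G protein subunit, at 3123 CPM, the highest levels of the 5 clusters. Ly6c2 and Ccr2 were both at 135 CPM, and Fn1 had 0 UMIs. Cx3cr1, another gene of these cells, was not higher there: it stood at 135 CPM (49.5 to 293) against 216, 421 and 232 CPM in clusters 1, 2 and 3.

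Cluster 2, with 28 cells, was led by Klrd1 (CD94, a receptor chain of NK and T cells), the chemokine Ccl5, Cd7, Cd209a, Siglech, Ccnd1, Cd209d and Ly6d. Cd209a, a lectin of dendritic cells, was read in 10 of its cells and Siglech, a lectin of plasmacytoid dendritic cells and microglia, in 7, with 2 cells in both sets; 3 others had at least 3 T cell markers. Class II genes were highest here, with Cd74 at 20433 CPM and H2-Aa at 6355 CPM. F13a1 was at 179.6 CPM and Fn1 at 82.9 CPM. Microglia markers summed to 2687 CPM in this cluster and to between 200.5 and 586 CPM in the other clusters. The rule genes Ly6c2 and Ccr2 stood at 1299 and 546 CPM in cluster 2, and 10 of its 28 cells had neither Siglech, Cd209a nor 3 T cell markers. It held several kinds of cell and was left without a type name.

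Cluster 5, with 11 cells, was led by granule genes: the antimicrobial peptide Camp, S100a9, Ngp, S100a8, the myeloperoxidase Mpo, the elastase Elane, Ltf and Wfdc21. S100a8, one chain of calprotectin, stood at 59341 CPM there and between 67.4 and 149.8 CPM elsewhere, and 5 of the 119 cells gave 99.3% of all its UMIs. Genes of dividing cells summed to 3627 CPM against 67.4 to 312 CPM in the other clusters, and Top2a, a topoisomerase of dividing cells, was read in 8 of the 11 cells and in none outside the cluster. Ly6c2 was at 1859 CPM in these cells. Because 6 of them had at least 3 neutrophil markers, the cluster was left without a type name; Cxcr2 of mature neutrophils was at 0, and Retnlg had to be by the rule.

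**Figure D2:**
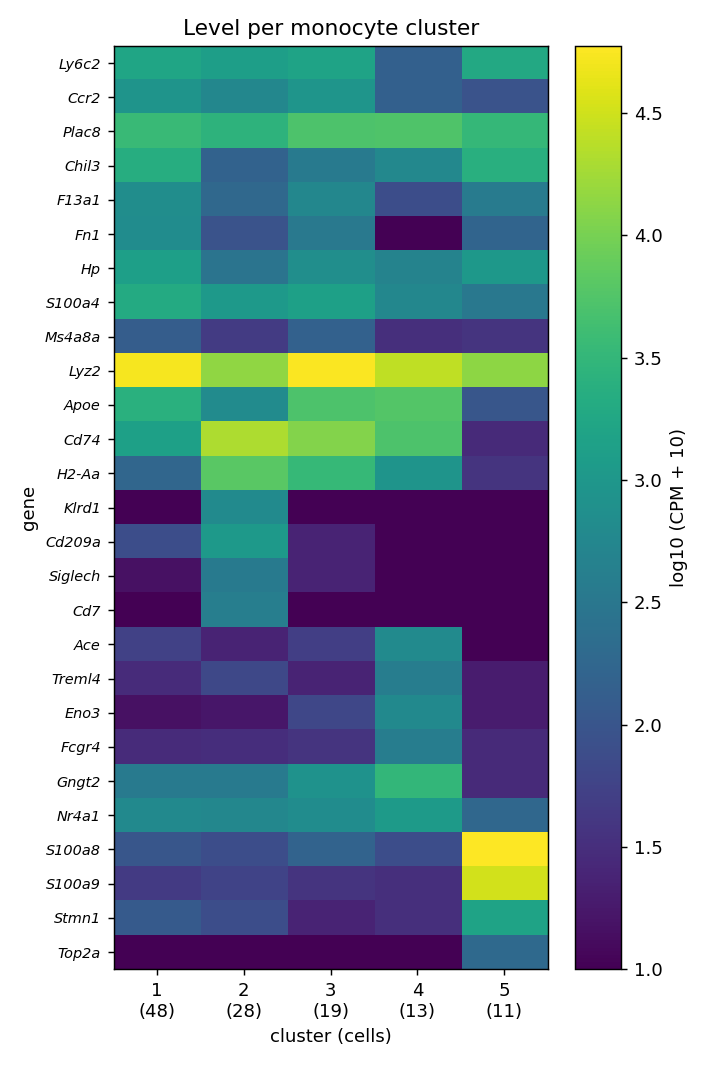
Level of 27 genes in each of the 5 clusters of monocytes, as log10 of CPM plus 10, with the number of cells below each cluster number. Ace, Treml4 and Eno3 are highest in cluster 4, Klrd1 and Cd7 are read only in cluster 2 and Top2a only in cluster 5.

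Single cells showed how far the class II and classical genes went apart. The 25 classical monocyte genes outside the rule took a median of 7.21% of a cell's UMIs in cluster 1 and 7.28% in cluster 3, against 0.932% in cluster 2. The 11 class II genes took a median of 0.0828% in cluster 1 and 0.9504% in cluster 3. In cluster 2 their median was 2.42% and the range ran from 0 to 12.9%, so cells with and without class II genes stood side by side in it. The classical genes ranged from 0 to 8.94% in cluster 2, so some of its cells reached the levels of clusters 1 and 3.

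**Figure D3:**
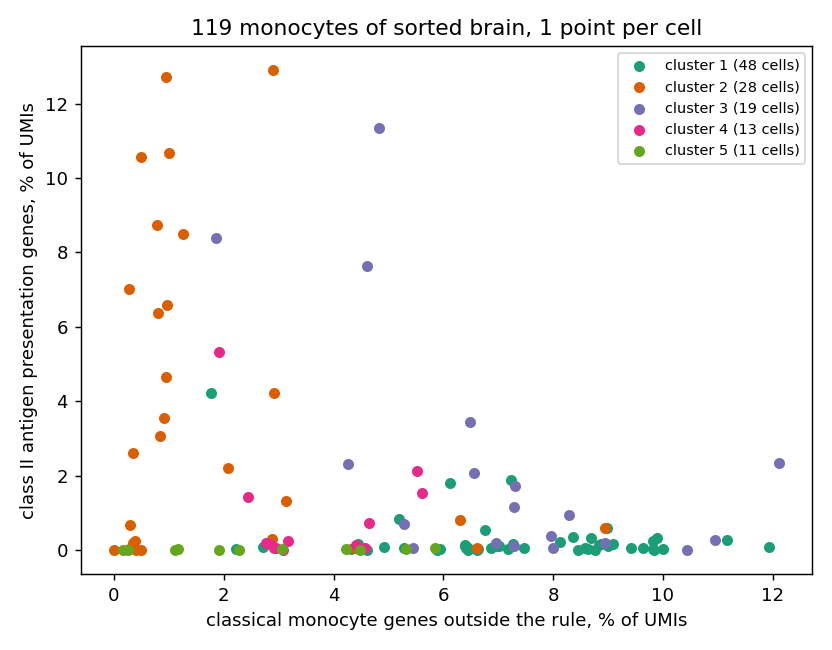
Each point is 1 of the 119 cells, coloured by cluster; the x axis gives the share of the cell's UMIs from 25 classical monocyte genes outside the rule and the y axis the share from 11 class II genes, both in %. Most cells of clusters 1 and 3 lie to the right with few class II UMIs, and the cells with the most class II UMIs belong mainly to cluster 2.

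The 119 monocytes were then set beside 82 border macrophages, 92 neutrophils and 4382 microglia of the same sample, chosen by marker genes. These classes were shallower, with medians of 1952, 2344 and 2063 UMIs, and the difference in depth cannot be told apart from the classes. A ratio is log2 of the CPM plus 1 in monocytes minus the same in the other class, and a gene is called higher or lower past 2-fold, with 1 sample and no test. Against border macrophages, 1493 of 6311 genes with at least 10 UMIs were higher (23.7%) and 916 lower (14.5%). Against neutrophils, 2884 of 6229 were higher (46.3%) and 434 lower (6.97%), while a TMM scaling, which allows for the few genes that fill neutrophil libraries, lowered every log2 ratio by about 0.64 and gave 1653 higher and 823 lower. Against microglia, 1479 of 13116 were higher (11.3%) and 4715 lower (35.9%), and with 10 CPM added in place of 1 the counts were 863 and 1496. In the 80 cells of clusters 1, 3 and 4 the shares were 21.7% higher and 16.4% lower against border macrophages, 42.2% and 9.22% against neutrophils, and 10.5% and 42.4% against microglia. All 3 comparisons share the monocytes.

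Genes that stood at least 2-fold above each of the 3 classes, with the lowest of the monocyte suffixes 1, 3 and 4 above every suffix of at least 20 cells of those classes, numbered 127. Border macrophages and neutrophils had 1 such suffix each. From these genes, the 20 with the widest margin are named here. In suffixes 1 to 4, monocyte S100a4 stood at 1338, 1478, 919 and 1728 CPM, against 5.68 CPM in border macrophages, 27.8 CPM in neutrophils and 11.3 CPM in microglia. The lowest monocyte suffix was thus far above every other class. S100a10, the partner of annexin A2, stood at 702 CPM, or 6.42 to 12.4 times its level in the other classes. Crip1, a small zinc-binding LIM protein, was at 4502 CPM against 363, 222 and 71.7 CPM, and the actin-binding Tmsb10 at 6700 CPM against 278, 902 and 384 CPM.

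In the same order, Fn1 stood at 473, 219.6, 219 and 448 CPM in monocytes, and at 11.4, 24.3 and 26.4 CPM in border macrophages, neutrophils and microglia. Itgb7, the beta 7 integrin of homing leukocytes, was at 288 CPM and had 0 UMIs in border macrophages, which makes it at least 16.9-fold higher with a floor of 3 counts over that class; it was 10.4-fold (5.14 to 24.4, counting error only) above neutrophils. Napsa, an aspartic protease, was at 677 CPM and at least 39.7-fold above border macrophages. Ms4a8a, a membrane protein of the Ms4a family that was not in the rule, was at 75.7 CPM (44 UMIs in 30 cells), with 0 UMIs in border macrophages and neutrophils and 2 among 4382 microglia. The others were Ass1, which makes argininosuccinate, Pdlim1, Ldlrad3, Nxpe4, Ace, Adgre4, Dna2, Tppp3 and the myosin Myo1g, and their levels lay between 53.4 and 155 CPM. Some of these came mainly from single clusters. Of the 59 UMIs of Ass1, 21 lay in cluster 2 and 25 in cluster 5, and it fell from 102 to 39.8 CPM in the 80 cells of clusters 1, 3 and 4. Of the 42 UMIs of Ace, 28 lay in the 13 cells of cluster 4.

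Cd209d, Cd7 and Klrd1 also passed the rule but were read only in cluster 2, in 7, 11 and 16 of the 119 cells, and had 0 UMIs in the 80 cells of clusters 1, 3 and 4. They are therefore genes of that cluster and not of the monocytes at large.

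Only 14 genes were lower than in all 3 classes by the same rule, and the first 10 are named. Slc40a1, the iron exporter ferroportin, had 2 UMIs in the 119 cells (3.44 CPM) against 85.1, 72.9 and 102 CPM in border macrophages, neutrophils and microglia. C5ar1, the receptor of complement C5a, stood at 46.6, 0, 25.3 and 48.0 CPM in suffixes 1 to 4, below its 551, 437 and 196 CPM in the other classes. The sialic acid receptors Cd33 and Siglece stood at 37.9 and 29.3 CPM, 0.161 to 0.195 and 0.184 to 0.299 times their levels in the other classes. Cd63, a tetraspanin of late endosomes, was at 138 CPM against 1311, 659 and 734 CPM. Ncoa4, which delivers ferritin for breakdown, was at 37.9 CPM, and Retreg1, Gmip, the early growth response gene Egr1 and Gadd45g completed the 10. Gadd45g was above neutrophils when suffix 3 was left out (log2 ratio 1.21).

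**Figure D4:**
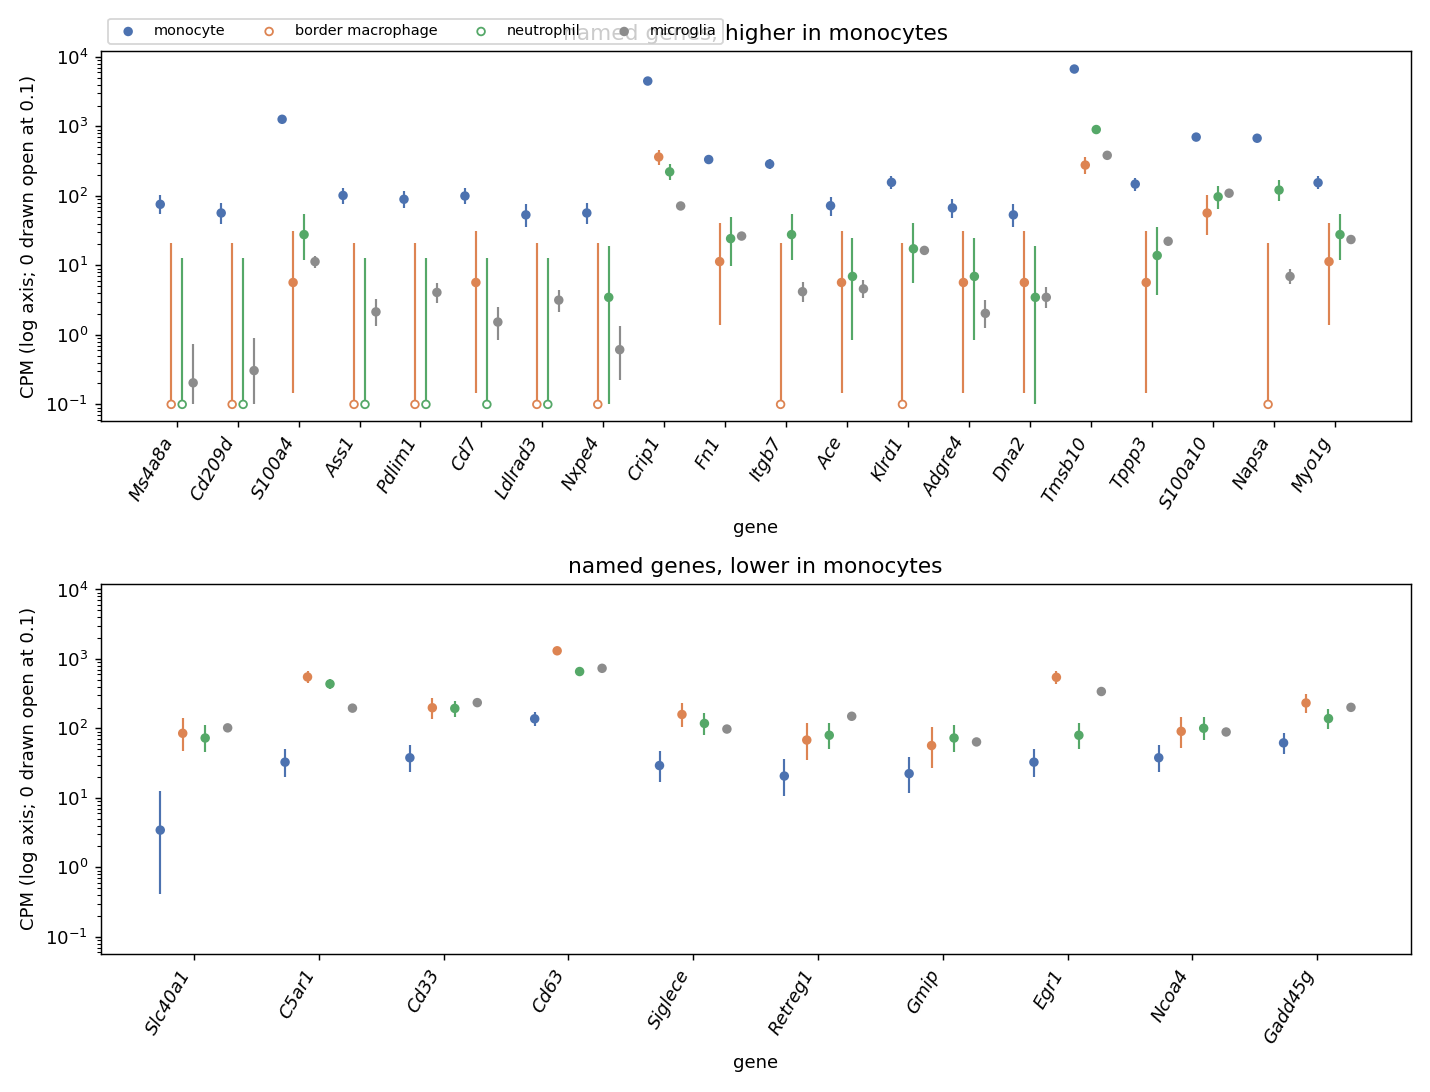
Level in CPM on a log axis of the 20 named higher genes (top) and 10 named lower genes (bottom) in monocytes, border macrophages, neutrophils and microglia of sorted brain, with 95% exact Poisson intervals, which cover counting error only; levels of 0 are drawn open at 0.1. The monocyte point lies above the others in the top panel and below them in the bottom panel, as the choice of these genes sets.

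Classical monocyte genes outside the rule were mostly higher than in border macrophages and microglia. Of 25, 17 were higher and 3 lower than in border macrophages, with a median log2 ratio of 2.36 against 0.21 over all genes tested, and 21 higher and 2 lower than in microglia (median 5.72 against -0.48). Hp, the haemoglobin scavenger haptoglobin, stood at 799, 732, 872 and 984 CPM in suffixes 1 to 4, with 0 UMIs in border macrophages and 2.76 CPM in microglia, but at 2030 CPM in neutrophils. F13a1 was at 436 CPM in monocytes and at 630 CPM in border macrophages, with 0 UMIs in neutrophils. It therefore marked both monocytes and border macrophages in this sample. Msrb1, which repairs oxidised methionine, stood at 1045 CPM in monocytes against 51.1, 2012 and 37.8 CPM in border macrophages, neutrophils and microglia, so it was shared with neutrophils. Mcemp1, a membrane protein of myeloid cells, gave a like picture at 227 CPM against 0 UMIs in border macrophages and 770.3 CPM in neutrophils. Csf1r, the growth factor receptor of macrophages, was lower in monocytes (408 CPM) than in border macrophages (1708 CPM) and microglia (3321 CPM). Against neutrophils 13 of the 25 were higher, near the 46.3% of all genes, and the median was 1.26 against 0.90 over all genes (0.62 with TMM scaling). The 7 lower ones were a larger share than the 6.97% of all genes and included Ifitm6, an interferon-induced transmembrane protein (881 against 2883 CPM).

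Of 15 non-classical genes, 11 were higher and 2 lower than in border macrophages, beside 23.7% and 14.5% of all genes. The median log2 ratio was 3.35, or 1.65 with the 6 genes at 0 in border macrophages set to their bound, against 0.21 over all genes. Gngt2 stood at 692, 600.2, 447 and 584 CPM in suffixes 1 to 4, against 136 CPM in border macrophages. Spn, the surface sialoprotein CD43, was read in 22 of the 119 cells (49.9 CPM) and had 0 UMIs in border macrophages. Cx3cr1, the fractalkine receptor, went the other way at 224 CPM against 585 CPM in border macrophages and 2115 CPM in microglia.

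Macrophage maturation genes were lower in monocytes. None of the 19 tested was higher than in border macrophages and 16 were lower, beside 23.7% and 14.5% of all genes. The median log2 ratio was -2.78, against 0.21 over all genes. In the 80 cells of clusters 1, 3 and 4, 1 of 18 was higher and 15 were lower, beside 21.7% and 16.4% of all genes. Apoe was at 2170, 2298, 2229 and 1912 CPM in suffixes 1 to 4, against 67522 CPM in border macrophages and 1504 CPM in microglia. In the 80 cells Apoe stood at 3511 CPM, past 2-fold above microglia (log2 ratio 1.22). C1qa, a chain of complement C1q, was at 258 CPM against 8730 and 11031 CPM, and in the monocytes it varied from 63.2 CPM in suffix 3 to 1112 CPM in suffix 2. In the 80 cells C1qa stood at 73.5 CPM. C1qb, another chain of C1q, followed it at 222 CPM against 7651 and 9623 CPM, and the lysosomal protease Lgmn was at 270.3 CPM against 2111 and 6141 CPM. Microglia markers were also highest in suffix 2, at 3176 CPM, and their part in that value was not tested. Mrc1, the mannose receptor of border macrophages, had 2 UMIs in 1 cell.

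Class II genes lay between the classes. The list summed to 14249 CPM in monocytes, 52027 CPM in border macrophages, 6114 CPM in neutrophils and 2594 CPM in microglia. Of 10 members, 2 were higher and 5 lower than in border macrophages, beside 23.7% and 14.5% of all genes. Cd74 stood at 5064, 11198, 6679 and 9974 CPM in suffixes 1 to 4. The class II beta chains H2-Ab1 and H2-Eb1 were at 2391 and 1267 CPM in monocytes, against 9462 and 6283 CPM in border macrophages, and were read in 40.3% and 30.3% of the monocytes. Without clusters 2 and 5 the list summed to 7665 CPM. Of 7 members then tested, 0 were higher and 5 lower than in border macrophages, beside 21.7% and 16.4% of all genes. Neutrophils make little class II, and the part of free RNA or other cells in their 6114 CPM was not tested.

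Genes of the type I interferon response are switched on at a short promoter element, and STING, the adaptor of cytosolic DNA sensing that was targeted in the STING-KO mice of this pool, is one of the proteins that start this response. Summed over the list, their level in monocytes was 11353, 8754, 7480 and 10694 CPM across suffixes 1 to 4. It summed to 6141 CPM in border macrophages, 2436 CPM in neutrophils and 2150 CPM in microglia. In the 1 suffix with at least 20 border macrophages, suffix 4, their sum was 7660 CPM, above the lowest monocyte suffix. Without Ifitm3 the list summed to 4490 CPM in monocytes (3762 to 5597 CPM across suffixes) and 4615 CPM in border macrophages, so the sum in monocytes was above that in border macrophages through that 1 gene, while neutrophils (1069 CPM) and microglia (1984 CPM) remained below. Gene by gene, 17 of 27 members were higher and 1 lower than in microglia (median log2 ratio 1.36), beside 11.3% and 35.9% of all genes. Against neutrophils 17 of 25 were higher and 3 lower (median 2.02, or 1.82 with genes at 0 set to their bound and 1.39 with TMM scaling), beside 46.3% and 6.97% of all genes. Against border macrophages 4 of 23 were higher and 3 lower, beside 23.7% and 14.5% of all genes, with a median of 0.05, near the 0.21 over all genes.

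A few abundant members made up most of that sum. Ifitm3, an antiviral membrane protein, stood at 5756, 4992, 3662 and 5863 CPM in suffixes 1 to 4, against 1527, 1367 and 166 CPM in border macrophages, neutrophils and microglia. It was read in 93.3% of monocytes and 10.2% of microglia, or in 85.7% and 6.15% at 1000 UMIs. Ifi27l2a was at 1462 CPM against 897, 139 and 87.3 CPM, and Ly6e at 1505 CPM against 1516, 233 and 1287 CPM. Irf7, a transcription factor that amplifies the response, was at 172 CPM against 62.4, 41.6 and 13.5 CPM. Isg15, a ubiquitin-like protein induced strongly by interferon, was lower in monocytes (102 CPM) than in border macrophages (204 CPM) and above microglia (42.3 CPM). Most of its UMIs came from cluster 2, with 41 UMIs at 283 CPM. In clusters 1, 3 and 4 it stood at 52.8, 68.1 and 44.9 CPM, near the level of microglia. Cxcl10, an interferon-induced chemokine, was read in 3 cells only.

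Nucleic acid sensors were also read above microglia and neutrophils. Of 22 members tested against microglia, 12 were higher and 2 lower (median log2 ratio 1.81), beside 11.3% and 35.9% of all genes. Of 18 against neutrophils, 13 were higher and 0 lower (median 2.20, or 1.52 at the bound and 1.58 with TMM scaling), beside 46.3% and 6.97% of all genes. Of 20 against border macrophages, 6 were higher and 2 lower (median 0.05), beside 23.7% and 14.5% of all genes. The PYHIN family, DNA-binding proteins encoded side by side on chromosome 1, gave 8 of the 12 higher calls against microglia. Mndal stood at 213, 87.8, 202 and 144 CPM in suffixes 1 to 4, against 153 CPM in border macrophages, 10.4 CPM in neutrophils and 4.08 CPM in microglia. Ifi204 was at 169 CPM against 130.5, 24.3 and 14.5 CPM, and Ifi211 at 108 CPM against 39.7, 6.94 and 1.53 CPM. Samhd1, which degrades deoxynucleotides, was at 406 CPM against 102, 212 and 55.03 CPM. The cytosolic nuclease Trex1 had 0 UMIs in monocytes and in the 3 other classes.

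Tmem173, the gene of STING, gave 13 UMIs in 10 of the 119 monocytes (22.4 CPM, 11.9 to 38.3), against 56.8 CPM in border macrophages and 145 CPM in microglia. It stood at 66.6 CPM in suffix 1 and 24 CPM in suffix 4 and had 0 UMIs in suffixes 2 and 3. A count of 0 allows up to 43.9 CPM at the depth of suffix 2 and 12.6 CPM at that of suffix 3. WT and STING-KO cells were pooled, so these numbers check no label, and no genotype was read from them.

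The promoters of 3 genes are printed because they belong to the 3 interferon and nucleic acid sensing genes with the highest levels in monocytes among those with an interferon element, Ifitm3, Bst2 (a membrane protein that tethers virus particles, 386 CPM) and Mndal. In the 80 cells of clusters 1, 3 and 4 Bst2 stood at 245 CPM, against 209 CPM in microglia. The element searched was GAAANNGAAA, or TTTCNNTTTC on the other strand, in RefSeq windows of GRCm38.p6 that run from 250 bases before to 50 bases after a gene's start; matches are in capitals, and neighbouring matches can overlap. The windows are given 5′ to 3′ on the strand of the gene, which is the minus strand for all 3. Ifitm3 lies at chr7:141010695-141010994, Bst2 at chr8:71537423-71537722 and Mndal, 1 of its 2 windows, at chr1:173879909-173880208.
Ifitm3: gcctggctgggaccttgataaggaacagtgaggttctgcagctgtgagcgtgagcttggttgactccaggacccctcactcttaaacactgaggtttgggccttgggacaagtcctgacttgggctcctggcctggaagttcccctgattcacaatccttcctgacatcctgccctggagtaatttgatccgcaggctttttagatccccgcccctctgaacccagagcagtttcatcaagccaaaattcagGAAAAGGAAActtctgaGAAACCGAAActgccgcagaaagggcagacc
Bst2: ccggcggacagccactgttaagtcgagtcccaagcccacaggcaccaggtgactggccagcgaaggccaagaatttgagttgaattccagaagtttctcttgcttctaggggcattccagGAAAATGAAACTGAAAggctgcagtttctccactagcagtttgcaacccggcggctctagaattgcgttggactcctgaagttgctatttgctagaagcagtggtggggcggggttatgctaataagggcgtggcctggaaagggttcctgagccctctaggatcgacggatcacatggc
Mndal: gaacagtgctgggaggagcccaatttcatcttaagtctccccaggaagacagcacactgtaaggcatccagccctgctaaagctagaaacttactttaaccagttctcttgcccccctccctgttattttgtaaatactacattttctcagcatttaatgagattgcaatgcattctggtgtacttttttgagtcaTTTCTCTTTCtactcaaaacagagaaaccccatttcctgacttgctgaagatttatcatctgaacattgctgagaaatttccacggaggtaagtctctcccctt
Ifitm3 had matches that begin at bases 3 and 20 counted from the start, Bst2 a pair of overlapping ones at -130 and -124, and Mndal 1 at -54. A match was found in 13 of the 21 interferon list genes with a window and 8 of the 18 nucleic acid sensing genes, and in 1079 of all 27025 genes (3.99%; 3.44% of 32851 windows). A match describes these letters and not a bound site.

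Other receptors and factors differed by member. Over all genes tested against border macrophages, 23.7% were higher and 14.5% lower, with a median log2 ratio of 0.21. Of 17 trafficking and adhesion receptors tested against them, 10 were higher and 4 lower, with a median log2 ratio of 1.45, or 1.07 at the bound. Itga4, the alpha 4 integrin, stood at 105 CPM against 34.1, 24.3 and 2.65 CPM in border macrophages, neutrophils and microglia. Of 16 Fc and pattern recognition receptors, 2 were higher and 11 lower than in border macrophages (median -1.40), among them the Fc receptor Fcgr1 (87.8 against 369 CPM). Tlr4, the receptor of bacterial lipopolysaccharide, was read in 4 cells (6.89 against 73.8 CPM), while the lectin Clec4d, at 34.4 CPM, had 0 UMIs in border macrophages and 295 CPM in neutrophils. Of 16 myeloid transcription factors, 2 were higher and 1 lower than in border macrophages and the median was 0.52. Klf13, a zinc finger factor, was 1 of the 2 higher, at 194.5 CPM against 28.4, 83.3 and 49.7 CPM in border macrophages, neutrophils and microglia. Irf8, a factor of monocyte and dendritic cell development, stood at 463 CPM in monocytes, 335 CPM in border macrophages and 570.4 CPM in microglia, but at 72.9 CPM in neutrophils. Many of its monocyte UMIs, 134, lay in cluster 2 (926 CPM). In clusters 1, 3 and 4 Irf8 stood at 341, 272 and 247 CPM, near or below its level in border macrophages. Of the 119 cells, 106 had a UMI of Spi1, the factor PU.1 of all myeloid cells.

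Cytokine and chemokine genes split by member. Against border macrophages 4 of 15 were higher and 8 lower, with a median log2 ratio of -2.06. Of all genes tested 23.7% were higher and 14.5% lower (median 0.21), so the share of higher members was near that of all genes. Ccl9 stood at 878, 1142, 818 and 1016 CPM in suffixes 1 to 4, against 176 CPM in border macrophages, 24.3 CPM in neutrophils and 208 CPM in microglia, and Ccl6 at 928 CPM against 182, 1513 and 226 CPM. Ccl2, the ligand of CCR2, was at 120.5 CPM in monocytes and 2231 CPM in border macrophages, a ratio of 0.0540 (0.0413 to 0.0698). Ccl7, another ligand of CCR2, had 2 UMIs in the monocytes (3.44 CPM) and 1578 CPM in border macrophages. Il1b, the inflammatory cytokine, was at 542 CPM against 324, 1936 and 65.4 CPM. Il10 had 0 UMIs in the 4 classes.

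Immediate early and dissociation genes, which rise when tissue is digested at 37 C, gave no calls above the macrophage classes. Of 15, 0 were higher and 9 lower than in border macrophages, beside 23.7% and 14.5% of all genes. Against microglia 0 were higher and 7 lower, beside 11.3% and 35.9% of all genes, so these calls were not far from the shares of all genes. Fos, another AP-1 subunit, stood at 2463 CPM against 4371 CPM in border macrophages and 1965 CPM in microglia, so it was above microglia by a ratio of 1.25 (1.19 to 1.32, counting error only). The phosphatase gene Dusp1 and Ier2 were also above microglia by less than 2-fold, at ratios of 1.30 (1.17 to 1.44) and 1.29 (1.16 to 1.44). Jun, a subunit of AP-1, stood at 587 CPM against 3599 and 3044 CPM. Junb, a related subunit, was closer, at 1795 CPM against 2605 and 3210 CPM. Jun was at 215 CPM in neutrophils, below the monocytes, and Junb at 2134 CPM.

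Of 20 antimicrobial and oxidative burst genes, 18 were higher and 0 lower than in border macrophages, beside 23.7% and 14.5% of all genes. The median was 6.91, or 4.84 at the bound. In the 80 cells of clusters 1, 3 and 4, however, 8 of 12 were higher, beside 21.7% of all genes, and the median was 1.58. Against neutrophils 3 of 20 were higher and 11 lower, beside 46.3% and 6.97% of all genes. The median was -1.30, and -5.03 in the 80 cells. Cybb, the catalytic subunit of the phagocyte oxidase, did not depend on cluster 5: it stood at 534 CPM in the 119 cells and 702 CPM in the 80. It stood at 249.7 CPM in border macrophages, 8.27 CPM in microglia and 430 CPM in neutrophils, so it was shared with neutrophils. Proliferation genes also changed without clusters 2 and 5. They summed to 888 CPM in the 119 cells and 227 CPM in the 80, and the median log2 ratio of the list was 5.00 (1.34 at the bound) and -0.39 against border macrophages and 1.10 and -1.11 against neutrophils.

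**Figure D5:**
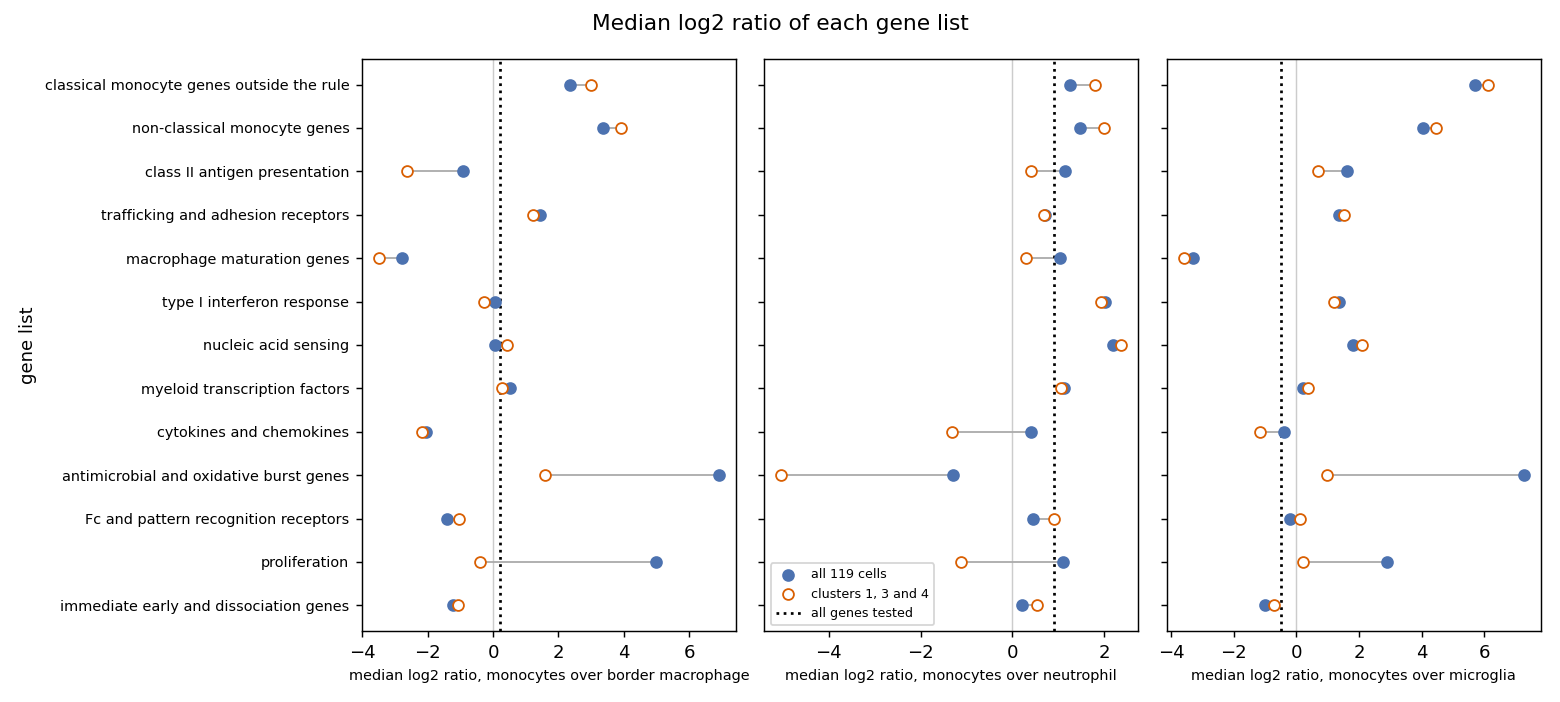
Median log2 ratio of each of the 13 gene lists, monocytes over border macrophages, neutrophils and microglia, for all 119 cells (filled) and the 80 cells of clusters 1, 3 and 4 (open); the dotted line is the median over all genes tested. Macrophage maturation genes lie at -2.78 against border macrophages and interferon genes at 1.36 against microglia, and the proliferation and antimicrobial lists move most without clusters 2 and 5.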

How the data were processed

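Single cells of mouse brain were measured in 2 pooled samples with 10x chemistry version 3, about 9000 cells per well, per the labels' protocols. The authors deposited raw UMI counts for 31053 genes per cell barcode, with 4 barcode suffixes per matrix. The submitters' processing notes name Cell Ranger 3.0.2 and mm10, and per the file headers version 3.0.2 made the sorted and 3.1.0 the total matrix; no source used here gives the annotation release or says if suffixes were equalised in depth. Columns of other samples numbered 0. Sorted brain held 13499 barcodes and 36822467 UMIs, and total brain 14674 and 48226525.

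Cells were kept from 500 genes upward and up to 10% mitochondrial (mt-) UMIs. The members, gene lists and marker lists were chosen with earlier results of these data known. Border macrophages, neutrophils and microglia needed at least 3 of their 8 markers and none of the others' defining genes, and barcodes with over 1% haemoglobin UMIs, at least 2 of 6 choroid plexus genes or any basophil gene Mcpt8 or Prss34 were taken out of them, a step added after seeing the data. Doublets were called with Scrublet per suffix and not removed. CPM are summed counts per 1000000, with exact Poisson intervals; shares have exact Clopper-Pearson and ratios exact binomial intervals, all at 95% and covering counting error only. Log2 ratios add 1 CPM, genes needed 10 UMIs over both classes, and a count of 0 was given a floor of 3. With 1 sample per group, no test was run, as designed.

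Named genes were 20 higher and 10 lower: at least 50 CPM in the higher class, past 2-fold against each class, the suffix ranges (20 cells or more) apart, ranked by the smallest ratio, without rule, predicted, mt- and ribosomal genes. The list rule gave the 5 members with the highest level and the 3 with the largest ratios in each direction against border macrophages, and the text prints examples of these; F13a1, Ifitm6, Itga4, Cxcl10, Ifi211, Trex1, Il10 and Top2a fell outside it and were chosen after their values were seen. Of the 13 lists' genes, Mx2, Mnda, Pyhin1 and Clec7a matched no symbol in the files.

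Members were clustered with scanpy 1.11.5 (1000 variable genes, 10 principal components, 10 neighbours, Leiden resolution 0.5), and 8 genes per cluster were named by fold with 10 CPM added. Ratios and their intervals were tested on simulated data, and the TMM scaling was not. Python 3.11.15, numpy 2.4.6, scipy 1.17.1 and pandas 2.3.3 were used. Promoters come from RefSeq (GRCm38.p6), and 31011 of 31053 gene IDs matched GENCODE M21.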

Additional observations from a re-analysis of the deposited data

How the results depend on the processing

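No paired analysis was possible because each group is 1 pooled sample with no replicate. The limits are counting error, the lack of any map from suffix to animal, and a rule of 3 detected genes that deeper cells pass more easily. The share of monocytes was 1.18%; it was 0.945% with the looser cell filter (200 genes, 20% mt-), 2.33% with the stricter one (1000 genes, 5%), 2.12% with at least 2 rule genes, 0.744% with at least 4, 1.95% with no gene required at 0, 0.953% without the 23 members with 3 microglia, neutrophil or choroid plexus markers and 0.794% without clusters 2 and 5. Leaving out each suffix in turn gave 0.945 to 1.38%.

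Against neutrophils 9 lists had a median of at least 2-fold in either direction; this was 5 with at least 4 rule genes, 4 with no gene required at 0 and 3 with TMM scaling, which called 1653 genes higher and 823 lower. With 10 CPM added, 863 genes were higher and 1496 lower than in microglia. With no UMI minimum the counts were 4420 and 2981 against border macrophages and 6392 and 1571 against neutrophils. With a minimum of 50 UMIs they were 471 and 209, 922 and 136, and, against microglia, 895 and 3077. Resolution 0.25 gave 3 clusters.

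Some directions reversed, and the cause was not tested. Against neutrophils the class II median was -0.07 with the stricter filter, the proliferation median -0.33 with it, -1.32 without suffix 3 and -1.11 without clusters 2 and 5, and the Gadd45g ratio 1.21 without suffix 3. The proliferation median against border macrophages was -0.39 without clusters 2 and 5, and the cytokine median 0.34 with no UMI minimum. Against microglia Cd209d was at -1.74 and Klrd1 at -2.33 with at least 4 rule genes, and Cd7 at -1.34 and Klrd1 at -4.12 without clusters 2 and 5. Over the alternatives, 6 of 741 list medians and 5 of 1670 ratios of named genes turned direction after being past 2-fold at first; smaller values were not counted as turned. The alternatives without members with other markers, without clusters 2 and 5 and with the removed barcodes kept in the comparison classes were chosen after seeing the data.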
